A study of Homo sapiens with 8 samples.

Results

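The Hippo pathway is a kinase cascade that holds back growth. The kinases STK3 and STK4, with the adaptor SAV1, activate LATS1 and LATS2, which with MOB1A or MOB1B phosphorylate the coactivators YAP1 and WWTR1 (TAZ) and so keep them out of the nucleus. Free YAP1 and WWTR1 bind the DNA-binding factors TEAD1 to TEAD4 and switch on target genes such as CCN1 (CYR61), CCN2 (CTGF), ANKRD1 and AXL. In epithelial tumours, ovarian carcinoma among them, YAP1 is known for promoting growth, and its targets respond to cell density, adhesion and tension.

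This account covers 42 genes of that pathway, in OVCAR-3, an established human ovarian carcinoma cell line, from which total RNA was taken 48 h after transfection. One group received siRNA against HBO1 (siHBO1, 4 arrays), a histone acetyltransferase whose gene is KAT7, and the other scramble siRNA (siCTRL, 4 arrays). All cells were plated in multiwell plates and transfected, and whether replicates came from separate cultures is not in the labels. The p-values thus cover the spread among these arrays alone, which may be technical. The array annotation paired 65 probes with the 42 genes, and every gene had at least 1 probe. Of those genes 37 entered a comparison of 17297 genes, through 54 probes that 4 or more arrays had detected, at a detection p under 0.05. A gene was represented by its kept probe with the highest mean. Values are normalized log2 intensities, where a difference of 1 is a doubling, and levels of different probes cannot be compared with each other. The genes were chosen from pathway knowledge together with earlier results of the comparison of siHBO1 with siCTRL, in which YAP1 and AXL stood out as lower. The siHBO1 minus siCTRL values of the pathway are therefore given as a description, without a test of their own.

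TEAD factors bind the short motif GGAATG, whose reverse complement is CATTCC. RefSeq promoter windows (GRCh38.p14, 300 bases, from 250 before to 50 after a transcript start) were at hand for 31 of the 42 genes, in 44 windows. The motif was searched on both strands, and no other motif was searched. It occurred in 10 of the 44 windows, or 22.7%, against 14.0% of all 34935 windows. The 10 genes were CCN2, ANKRD1, AMOTL2, AXL, YAP1, NUAK2, TGFB2, FOXF2, PTPN14 and LATS2. The 11 genes without a window were TEAD1, TEAD4, STK3, FAT4, DCHS1, CCN1, ASAP1, CRIM1, GADD45A, DOCK5 and ARHGEF17. A match is a description of the letters and not a binding site. The windows below belong to YAP1, to AXL and to 3 genes that read out YAP1 activity. Their positions are chr6:131951323-131951622 for CCN2, chr10:90921038-90921337 for ANKRD1 and chr3:134374398-134374697 for AMOTL2, all on the minus strand. On the plus strand are chr19:41226505-41226804 for AXL and chr11:102110197-102110496 for YAP1. They are shown 5′ to 3′ on the gene's strand, with capitals marking the motif.
CCN2: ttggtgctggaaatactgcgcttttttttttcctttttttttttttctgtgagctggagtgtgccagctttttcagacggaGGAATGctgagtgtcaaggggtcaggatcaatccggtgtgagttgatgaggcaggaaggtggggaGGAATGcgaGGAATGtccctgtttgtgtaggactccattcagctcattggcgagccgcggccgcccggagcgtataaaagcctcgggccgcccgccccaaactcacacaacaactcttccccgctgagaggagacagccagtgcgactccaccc
ANKRD1: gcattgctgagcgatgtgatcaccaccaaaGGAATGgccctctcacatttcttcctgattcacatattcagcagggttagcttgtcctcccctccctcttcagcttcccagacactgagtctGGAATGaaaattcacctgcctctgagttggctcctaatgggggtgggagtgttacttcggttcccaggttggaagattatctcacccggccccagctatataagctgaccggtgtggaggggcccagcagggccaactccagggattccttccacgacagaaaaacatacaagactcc
AMOTL2: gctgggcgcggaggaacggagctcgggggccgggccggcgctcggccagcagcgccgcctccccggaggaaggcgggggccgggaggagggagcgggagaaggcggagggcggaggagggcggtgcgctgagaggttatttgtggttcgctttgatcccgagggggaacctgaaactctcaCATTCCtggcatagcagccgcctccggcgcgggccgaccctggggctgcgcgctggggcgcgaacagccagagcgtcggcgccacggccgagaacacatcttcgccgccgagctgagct
AXL: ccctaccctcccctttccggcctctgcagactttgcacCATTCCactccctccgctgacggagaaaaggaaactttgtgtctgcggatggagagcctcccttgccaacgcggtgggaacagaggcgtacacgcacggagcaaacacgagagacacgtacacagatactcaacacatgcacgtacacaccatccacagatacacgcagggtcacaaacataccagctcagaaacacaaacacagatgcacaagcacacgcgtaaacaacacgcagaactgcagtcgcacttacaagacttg
YAP1: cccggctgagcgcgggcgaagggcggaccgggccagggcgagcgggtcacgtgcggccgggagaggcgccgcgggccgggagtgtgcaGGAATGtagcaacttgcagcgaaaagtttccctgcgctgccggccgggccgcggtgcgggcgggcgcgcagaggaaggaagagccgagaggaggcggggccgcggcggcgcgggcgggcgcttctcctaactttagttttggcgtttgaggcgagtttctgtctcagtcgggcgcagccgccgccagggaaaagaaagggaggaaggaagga
The CCN2 window held 3 matches, whose first bases lay 169, 104 and 95 bases before the start. The ANKRD1 window held 2, at 220 and 128 bases before the start. The single matches of AMOTL2, AXL and YAP1 lay 69, 212 and 162 bases before it, and those of AMOTL2 and AXL were in the reverse orientation. The AXL and AMOTL2 windows shown are each 1 of 2 for the gene, and the other window held no match.

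The targeted gene KAT7 was read first, since it checks the labels. On siCTRL replicates 1 to 4 it stood at 7.67, 7.97, 7.93 and 7.35. On siHBO1 replicates 1 to 3 it stood at 6.66, 6.86 and 7.04. The array labelled siHBO1 replicate 4 read 7.43, inside the siCTRL range, so lower KAT7 was seen on 3 of the 4 arrays labelled siHBO1. The arrays detected 20504 to 22111 probes each, at median intensities of 224 to 324. All 9 ovarian carcinoma markers looked for, PAX8, WT1 and MUC16 among them, were detected on all 8 arrays. Of 20 listed interferon-stimulated genes 19 were tested, and all 19 differences were positive (median 1.42), against 47.8% of all genes. Past the adjusted threshold (limma) were 3 of 19, against 0.0347% of all genes, and 12 of 19 with the replicate number as a block, against 0.335%. Groups lay apart for 17 of 19, all higher in siHBO1, against 1.35% of all genes, the exceptions being MX2 and IFI6. For these 17 genes the array labelled siHBO1 replicate 4 lay above every siCTRL array, unlike its KAT7 value. The list was written with earlier results of these data known, so these counts are a description only. The part of the interferon-stimulated genes in the pathway values was not tested.

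Both coactivators stood lower in siHBO1 on average, YAP1 by more than WWTR1. YAP1 read 11.32, 11.73, 11.74 and 11.61 on siCTRL replicates 1 to 4, and 11.20, 11.25, 11.03 and 11.02 on siHBO1 replicates 1 to 4. Every siHBO1 array lay below every siCTRL array, the gap being narrowest between siCTRL replicate 1 and siHBO1 replicate 2. Group means were 11.13 ± 0.12 (SD, n = 4) for siHBO1 arrays and 11.60 ± 0.19 (SD, n = 4) for siCTRL arrays, a difference of -0.47 (SE 0.12), or 1.39-fold lower. In bulk RNA, less YAP1 RNA per cell and fewer cells that express it cannot be told apart. Numbered pairs join the arrays of the same replicate number, a link that the values bore out for replicate 1 alone. The YAP1 difference was -0.12, -0.48, -0.71 and -0.59 in numbered pairs 1 to 4. KAT7 differed by -1.01 in pair 1 and by 0.08 in pair 4. Pair 4 rests on the numbering only, and a relation of the YAP1 difference to the KAT7 difference was not tested. Over 22 alternative settings the YAP1 group difference stayed negative in all 22, between -0.59 and -0.40. The YAP1 groups overlapped with median scaling and without normalization between arrays.

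WWTR1, the paralogue of YAP1, read 8.77, 9.37, 9.35 and 9.45 on siCTRL and 8.46, 9.08, 9.54 and 9.20 on siHBO1. The groups overlapped widely, at a difference of -0.16 (SE 0.23). Its lowest array in each group was replicate 1.

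**Figure D1:**
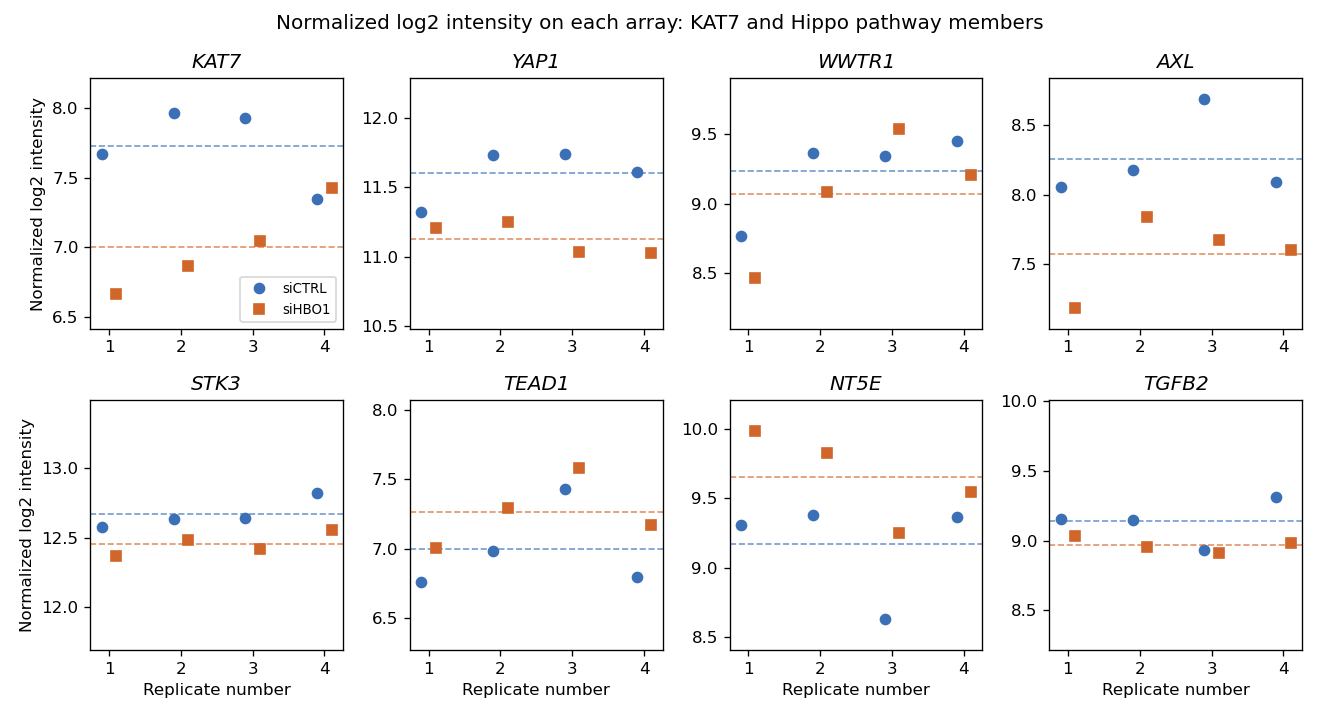
Normalized log2 intensity (vertical axis) on each array against the replicate number (horizontal axis), for KAT7 and 7 pathway genes. Circles are siCTRL, squares siHBO1 and dashed lines group means. The siHBO1 squares of YAP1, AXL and STK3 all lie below the siCTRL circles, whereas those of WWTR1, TEAD1, NT5E and TGFB2 overlap with them.

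The TEAD factors carry YAP1 and WWTR1 to DNA. TEAD1 read 6.76, 6.98, 7.43 and 6.80 on siCTRL and 7.004, 7.29, 7.58 and 7.17 on siHBO1. It was higher in siHBO1 in each numbered pair, while the groups overlapped (difference 0.27, SE 0.18). TEAD2 read 13.33, 13.28, 13.47 and 13.58 on siCTRL and 13.32, 13.48, 13.36 and 13.48 on siHBO1. Its difference of -0.01 (95% confidence interval -0.24 to 0.23) does not show that it was unchanged. TEAD3 read 10.16, 9.94, 9.98 and 9.86 against 10.14, 10.01, 9.92 and 10.27, a difference of 0.10 (SE 0.12) made mostly by replicate 4. TEAD4 read 11.87, 11.56, 11.81 and 11.72 against 11.52, 11.74, 11.64 and 11.71, a difference of -0.09 (SE 0.11). VGLL4, which competes with YAP1 for TEADs, differed by -0.09 (SE 0.12). All 5 genes had overlapping groups. A second probe of TEAD1 and one of the 3 probes of TEAD4 were not detected on any array.

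Among core kinases and adaptors, STK3 (MST2) alone had groups that did not overlap. It read 12.58, 12.64, 12.65 and 12.82 on siCTRL and 12.37, 12.49, 12.42 and 12.56 on siHBO1. The highest siHBO1 array and the lowest siCTRL array almost touched, and the difference was -0.21 (SE 0.10), or 1.16-fold lower. Pair differences ran from -0.26 to -0.15. Its groups overlapped with median scaling, without normalization between arrays and in the authors' processed values. Its paralogue STK4 (MST1) differed by -0.07 (SE 0.09) and their adaptor SAV1 by -0.03 (SE 0.09). MOB1A and MOB1B, cofactors of the LATS kinases, differed by 0.12 and 0.14. TAOK1, a kinase that activates STK3 and STK4, differed by 0.08 with an SE of 0.35, the largest SE among the 37 genes.

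LATS1 and LATS2 phosphorylate YAP1 directly, and LATS2 is also a target of YAP1. Neither LATS1 probe was detected on any array, so LATS1 was not compared. LATS2 was a dim probe detected on 3 arrays of each group, at 6.92, 6.84, 6.53 and 6.61 on siCTRL and 6.81, 6.42, 6.85 and 6.57 on siHBO1 (difference -0.06, SE 0.14).

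None of the 7 upstream regulators tested had groups that lay apart. NF2 (merlin), which recruits LATS kinases to the membrane, differed by -0.11 (SE 0.33). WWC1 (KIBRA), its partner, differed by -0.07 (SE 0.10). AMOT, a scaffold that tethers YAP1 at junctions, differed by 0.07 (SE 0.20). AMOTL2, its relative and a YAP1 target, read 7.89, 7.37, 7.47 and 7.24 on siCTRL and 8.07, 7.16, 7.004 and 7.05 on siHBO1, a difference of -0.17 (SE 0.25). It was lower in siHBO1 in pairs 2 to 4 and higher in pair 1. The giant cadherins FAT1 and FAT4 differed by 0.02 (SE 0.29) and 0.31 (SE 0.13). FAT4 was detected on 2 of 4 siCTRL arrays and on 4 of 4 siHBO1 arrays, and siHBO1 alone met the filter of 4 arrays. Its level lies near the background in both groups, at 6.26 to 6.71 on siCTRL and 6.70 to 6.88 on siHBO1. A second FAT4 probe was not detected on any array. The phosphatase PTPN14, which restrains YAP1, differed by 0.04 (SE 0.12). AMOTL1 was not detected on any array, and DCHS1, the ligand of FAT4, on 1 array.

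**Figure D2:**
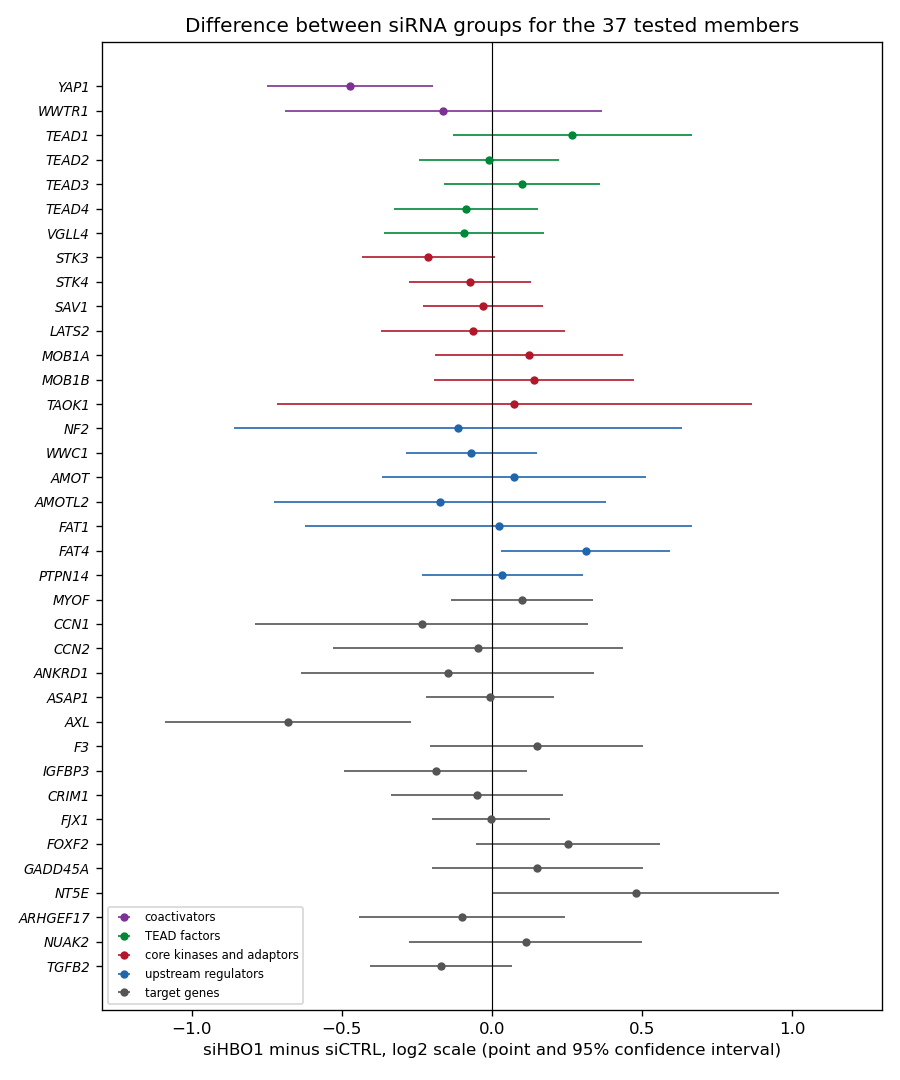
Difference of siHBO1 minus siCTRL on the log2 scale (horizontal axis) for the 37 tested genes (rows), with 95% confidence intervals from the fit to 4 against 4 arrays and colours for the gene's role. YAP1 (-0.47) and AXL (-0.68) lie farthest below 0, NT5E (0.48) and the dim probe of FAT4 (0.31) farthest above, and most genes lie within 0.2 of it.

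AXL, a receptor tyrosine kinase switched on by YAP1 and TEADs, was the target gene that stood lowest. It read 8.06, 8.18, 8.69 and 8.09 on siCTRL and 7.19, 7.84, 7.67 and 7.60 on siHBO1. All siHBO1 arrays lay below all siCTRL arrays. The difference was -0.68 (SE 0.18), or 1.60-fold lower, and it was between -0.79 and -0.35 over 22 alternative settings, with groups that overlapped without normalization between arrays. A second AXL probe read 7.07, 7.36, 7.65 and 7.45 on siCTRL and 6.91, 7.12, 6.86 and 7.51 on siHBO1. It differed by -0.28, in the same direction, but its groups overlapped, siHBO1 replicates 2 and 4 lying above the lowest siCTRL array. AXL's ligands GAS6 and PROS1 differed by -0.24 (SE 0.17) and -0.13 (SE 0.09), and its related receptors TYRO3 and MERTK by 0.01 and 0.20. PROS1 was lower on every siHBO1 array than on any siCTRL array, GAS6 was not.

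The classical readouts of YAP1 activity did not separate the groups. CCN1, a secreted matrix-associated protein, read 13.04, 12.53, 12.31 and 12.55 on siCTRL and 13.10, 12.09, 12.09 and 12.21 on siHBO1. The difference was -0.23 (SE 0.25). Within replicates 2 to 4, every siHBO1 array lay below every siCTRL array for CCN1, at a mean of -0.33, and likewise for AMOTL2, at -0.29. Of all genes 12.4% had groups apart in that smaller comparison of 3 against 3 arrays. The pathway genes apart there were CCN1, AMOTL2, YAP1, AXL and STK3, the last 3 being apart on all arrays as well. Nothing is read from that comparison. CCN2, the close relative of CCN1, read 13.98, 13.28, 13.25 and 13.29 on siCTRL and 13.84, 13.15, 13.10 and 13.51 on siHBO1. Its groups overlapped, at -0.05 (95% confidence interval -0.53 to 0.44). ANKRD1, a nuclear ankyrin repeat protein, read 11.37, 10.68, 11.20 and 10.68 against 11.34, 10.82, 10.60 and 10.60. Its difference of -0.15 (SE 0.22) came mostly from pair 3, at -0.60.

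NT5E, the ectonucleotidase CD73, stood higher than any other target. It read 9.31, 9.38, 8.63 and 9.37 on siCTRL and 9.98, 9.83, 9.25 and 9.54 on siHBO1, a difference of 0.48 (SE 0.21). The siHBO1 array was the higher in all 4 pairs, while siHBO1 replicate 3 lay below 3 of the siCTRL arrays. The forkhead factor FOXF2 differed by 0.25 (SE 0.14), with detection on 2 siCTRL and 3 siHBO1 arrays. TGFB2, a TGF-beta ligand, differed by -0.17 (SE 0.11), and IGFBP3, which binds insulin-like growth factors, by -0.19 (SE 0.14). GADD45A, a growth arrest gene, the coagulation receptor gene F3, the kinase gene NUAK2 and the membrane repair gene MYOF lay between 0.10 and 0.15. ARHGEF17 differed by -0.10, CRIM1, which binds bone morphogenetic proteins, by -0.05, and the Arf regulator gene ASAP1 by -0.01. FJX1 differed by -0.0021. DOCK5 was not detected on any array, and RBMS3 on 1 array by 1 of its 3 probes.

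The question whether lower YAP1 or AXL went with lower targets can be read pair by pair, as values without a test. Besides AXL, 15 targets were tested. The number of these targets that were lower in siHBO1 was 8, 9, 6 and 6 in pairs 1 to 4. Of all genes 52.1%, 51.0%, 49.8% and 51.5% were lower in those pairs. The median difference of the 15 targets was -0.0025 in pair 1, -0.04 in pair 2 and 0.06 in pairs 3 and 4. In pair 3, where YAP1 (-0.71) and AXL (-1.02) were both at their lowest, 6 of 15 were lower. Over all 4 pairs the 15 targets had a median difference of -0.01 against -0.01 over all genes, with 9 negative and 6 positive. YAP1 and AXL were lower in every pair, which any pairing would give, since their groups did not overlap. They had also guided the choice of genes. The medians of the other targets lay on both sides of 0, and no contrast with YAP1 and AXL is read from this.

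**Figure D3:**
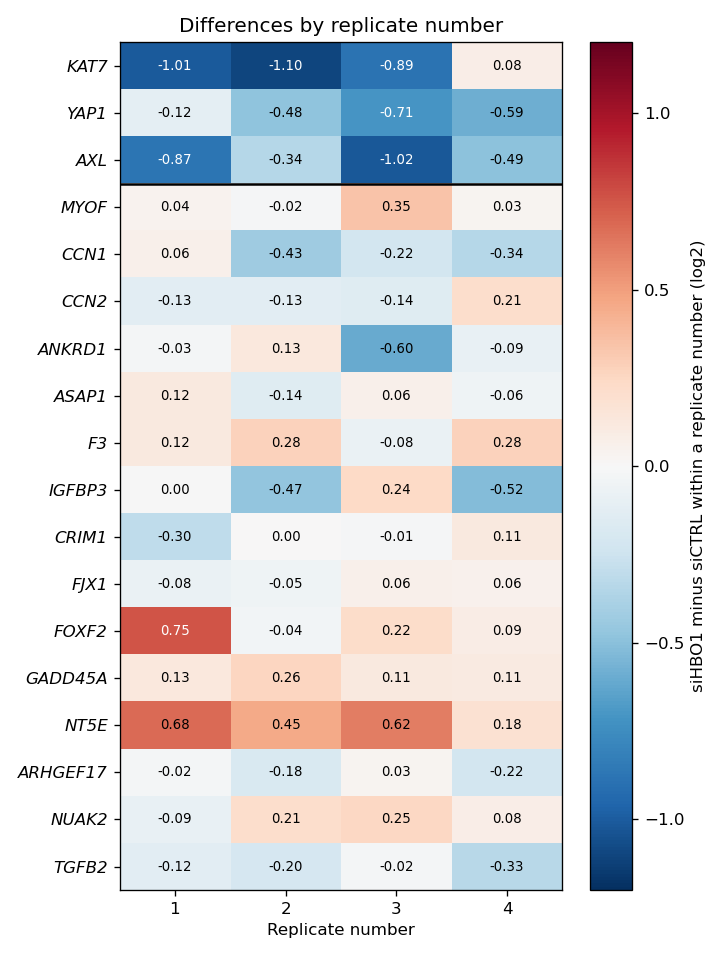
Difference of siHBO1 minus siCTRL within each replicate number (columns) for KAT7, YAP1, AXL and the 15 other target genes tested (rows), on the log2 scale, blue for lower and red for higher. YAP1 and AXL are blue in all 4 columns, KAT7 in columns 1 to 3, and the targets below the line are mixed.

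By the fit across all 17297 genes (limma, Benjamini-Hochberg adjusted p under 0.05), 0 of the 37 genes passed, against 0.0347% of all genes, and 0 passed with the replicate number as a block, against 0.335% of all genes. At an unadjusted p under 0.05 (limma) there were 4 of 37, YAP1, AXL, NT5E and FAT4, against 3.79% of all genes. FAT4 lies near the background, and siHBO1 alone met its filter. Groups did not overlap for 3 of 37, YAP1, AXL and STK3, all lower, against 1.47% of all genes in that direction. In the other direction it was 0 of 37 against 1.35%, and in either direction 3 of 37 against 2.82%. The pathway genes were chosen with this comparison known, so nothing is read from these counts. Over the 37 genes the median difference was -0.03, with 15 positive, or 40.5%, against -0.01 over all genes, of which 47.8% were positive. Several kept probes stood behind 13 of the genes and gave the same sign in 10, the exceptions being NF2, MYOF and ASAP1, each with values between -0.13 and 0.10.

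The replicate number was a second source of spread, and one that the choice of genes had not used. The labels number the arrays 1 to 4 in both groups without saying what a number shares. A moderated F-test (limma) on the replicate number, with the siRNA in the fit, called 5 of 37 pathway genes, or 13.5%, against 8.31% of all genes. The 5 genes were NF2, FAT1, AMOT, CCN1 and CCN2. Higher in replicate 1 were 4 of 37, against 5.8% of all genes, and lower was 1 of 37, against 2.51%. In each the 2 replicate 1 arrays lay on one side of all 6 others. The F-test compares all 4 replicate numbers, so its p-values below are not a test of replicate 1 against the others.

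NF2 differed most by replicate number. It read 7.97 and 7.68 on the replicate 1 arrays of siCTRL and siHBO1, and between 8.63 and 9.05 on the other 6. Replicate 1 stood 1.08 below the mean of the others (difference -1.08, SE 0.14, limma adjusted p = 0.00444 for the replicate number). A second NF2 probe gave -1.08 as well, whereas the others gave 0.05 and -0.19, so the probes of NF2 disagreed.

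FAT1 moved the opposite way, at 13.16 and 13.24 on the replicate 1 arrays and between 12.13 and 12.43 on the other 6. Its difference was 0.94 (SE 0.11), with a limma adjusted p = 0.0208 for the replicate number, and its second probe gave 1.04. AMOT was 0.53 higher (SE 0.14), at 13.11 and 13.13 against 12.34 to 12.86 (limma adjusted p = 0.0340 for the replicate number). Both genes were thus high on the same arrays on which NF2 was low.

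The targets CCN1 and CCN2 were high on the replicate 1 arrays too. CCN1 was 0.78 higher there (SE 0.12), at 13.04 and 13.10 against 12.09 to 12.55 (limma adjusted p = 0.0372 for the replicate number). CCN2 was 0.65 higher (SE 0.12), with its second probe at 0.83 (limma adjusted p = 0.0489 for the replicate number). The siRNA differences of the same genes were -0.23 and -0.05.

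Other pathway genes lay on one side as well without passing the test. TAOK1, AMOTL2, ANKRD1, NUAK2, GADD45A and ARHGEF17 had both replicate 1 arrays above the others, at differences between 0.39 and 1.01. WWTR1 (-0.72), MOB1A (-0.33) and WWC1 (-0.13) had both below. In all, 10 of 37 genes had both replicate 1 arrays above the other 6, against 16.2% of all genes, and 4 had both below, against 22.7%. Of 16 targets 14 were higher on replicate 1 than on the others on average, the exceptions being AXL and FJX1. Of all genes 41.9% were higher there. Among 33 other YAP and TAZ targets tested, listed further below, 15 were higher, or 45.5%, close to the share of all genes. The 14 of 16 thus describes the listed targets and not YAP targets in general. YAP1 itself differed by -0.13 (SE 0.13).

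**Figure D4:**
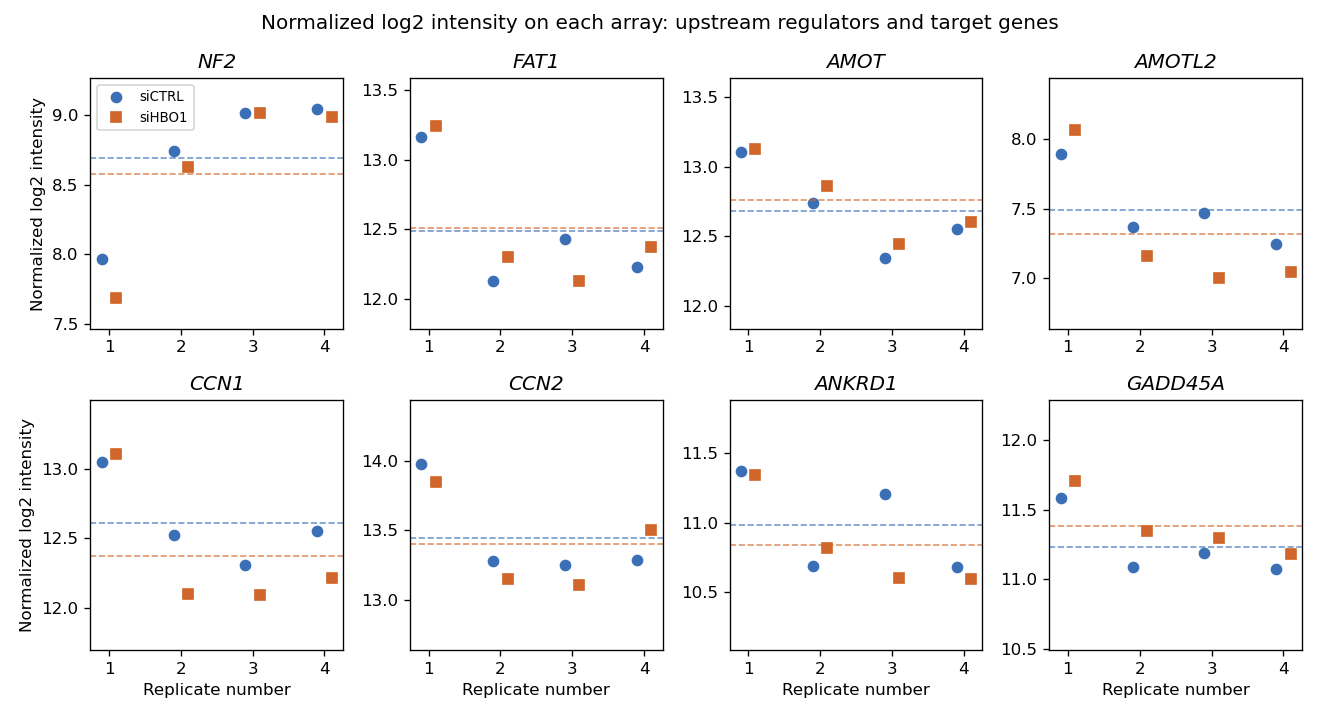
Normalized log2 intensity (vertical axis) against the replicate number (horizontal axis) for 8 upstream regulators and targets. Circles are siCTRL, squares siHBO1 and dashed lines group means. In replicate 1 both arrays are lowest for NF2 and highest for the other 7 genes, whatever the siRNA.

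These values rest on replicate 1. Without both replicate 1 arrays the F-test called 0 of 37 pathway genes and 0 of 17297 genes (limma; an unadjusted p under 0.05 was reached by 956 genes). Leaving out the siHBO1 replicate 1 array alone, it called 0 of 37 and 274 of all genes. Without the siCTRL replicate 1 array it called NF2 and 337 of all genes. Over 23 alternatives NF2 passed in 21, FAT1 in 17, AMOT in 11, CCN1 in 10 and CCN2 in 11. The replicate 1 arrays were the dimmest, with median intensities of 224 and 240 against 280 to 324. Without normalization between arrays the median of all genes was -0.51 in replicate 1 relative to the others, and AMOT stood at -0.02, GADD45A at -0.11, NUAK2 at -0.02 and ARHGEF17 at -0.15. Relative to that median, 13 of 16 targets lay above it, while 3 of 16 were above 0. With median scaling 12 of 16 were above 0. The leukocyte list had 2 of 4 markers with a probe detected, CD3E and PTPRC never being detected, and its summed normalized intensity was 6305 to 6330 in replicate 1 against 2386 to 2676 on the others, through CD68 (2.10). The mucin MUC16 of the ovarian list was 1.54 higher as well, and that list's sum was 109359 to 114917 against 98349 to 106514. The part of brightness and of these genes in the replicate values was not tested.

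**Figure D5:**
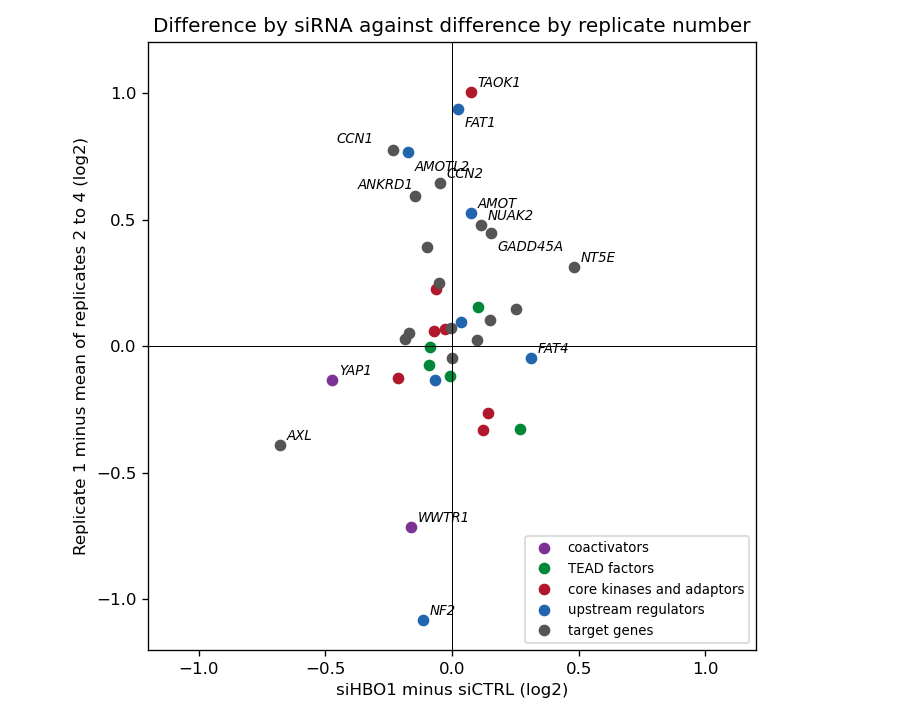
Difference by replicate number (vertical axis, replicate 1 minus the mean of replicates 2 to 4) against difference by siRNA (horizontal axis, siHBO1 minus siCTRL) for the 37 tested genes, both on the log2 scale, coloured by role. YAP1 and AXL lie to the left of 0 (-0.47 and -0.68), whereas NF2 (-1.08), FAT1 (0.94) and CCN1 (0.78) are set apart along the vertical axis.

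Of 51 other Hippo components listed 41 were tested. By siRNA 0 of them passed the adjusted threshold (limma), higher or lower, against 0.0347% of all genes. At an unadjusted p under 0.05 there were 0, against 3.79% of all genes. Groups lay apart for 0, against 2.82% of all genes (median -0.03). By replicate number 4 of 41 passed, or 9.76%, against 8.31% of all genes: STRIP2, a scaffold of the STRIPAK phosphatase complex, at 2.65 higher in replicate 1, RASSF6 and RASSF1, scaffolds that bind STK3 and STK4, at 2.48 and 0.64, and the cadherin FAT2 at 0.94.

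Of 43 other YAP and TAZ targets listed 33 were tested, with 0 past the adjusted threshold by siRNA, against 0.0347% of all genes. At an unadjusted p under 0.05 there were 3, against 3.79% of all genes (limma, median -0.06). FGF2, KRT80 and CAPN2, named after their values were seen, had groups that lay apart, as did 2.82% of all genes, the growth factor FGF2 higher at 0.56 (SE 0.13), the keratin KRT80 lower at -0.27 (SE 0.10) and the protease subunit CAPN2 lower at -0.39 (SE 0.14). By replicate number 7 of 33 passed, or 21.2%, against 8.31% of all genes. The matrix protein gene THBS1 (0.94), the peptide hormone gene EDN1 (1.16), the growth factor gene HBEGF (0.69), the stress gene GADD45B (0.72) and the integrin gene ITGA2 (0.78) were higher in replicate 1, and MDFIC (-1.06) and the caveolar gene CAVIN2 (-0.997) were lower.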

How the data were processed

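Total RNA of 8 OVCAR-3 samples was hybridised to Illumina BeadChips. The authors deposited a table of probe intensity that was not normalized, along with each probe's detection p-value on each array, and a value table on the log2 scale. GenomeStudio and lumi are named, per the submitters' processing notes, with version: not given in the sources used here. Each intensity was corrected with normexp (limma's nec, offset 16), put on the log2 scale and quantile normalized. Probes with a detection p-value under 0.05 on at least 4 arrays were kept, 21377 of 47312. Names came from the platform annotation (30108 probes with 1 symbol, 8 with several, 17196 with none), of which 30069 matched RefSeq. Of the 17297 features tested 12222 had a name. The fits used limma 3.58.1 in R 4.3.3 with eBayes and Benjamini-Hochberg adjustment, and were also run on simulated data. The simulated noise left out the spread between replicate numbers for most genes, so nothing is read from that run. The main siRNA fit did not use the replicate number as a block. Each SE of a siRNA difference thus includes the spread between replicate numbers. With the block the SE was 0.11 instead of 0.25 for CCN1 and 0.09 instead of 0.18 for TEAD1. For YAP1 it was 0.11 instead of 0.12. The precision is limited by the number of arrays.

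All 42 pathway genes are named, and other genes come from lists of the pathway, of interferon-stimulated genes and of markers. The pathway genes and the lists were chosen with earlier results of these data known. Samples of the same number were taken as pairs, a link that the labels do not state. Their deviations from the group means correlated at 0.783, 0.324, 0.397 and 0.217 for replicates 1 to 4. The highest correlation with another number was -0.307, 0.404, 0.404 and 0.383. Replicate 1 alone thus correlated best with its own number. Its shift enters the group means, so these correlations cannot settle whether numbers 2 to 4 match between groups. Pairs 2 to 4 rest on the numbering only. Alternatives changed the background correction, scaling, filter, choice of probe, moderation, the block and the arrays, and used the authors' log2 values. LATS1, AMOTL1, DCHS1, DOCK5 and RBMS3 were left out as not detected on 4 arrays.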

Additional observations from a re-analysis of the deposited data

Results flagged for a closer look

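In 76 groups of 4 arrays, 1 array lay far from the other 3 in 6 cases, and chance flags about 1 group in 20. Replicate 1 was the array in 4 of them: WWTR1 on siCTRL at 8.77 (nearest 9.35), CCN2 on siCTRL at 13.98 (13.29), AMOTL2 on siHBO1 at 8.07 (7.16) and CCN1 on siHBO1 at 13.10 (12.21). NT5E on siCTRL replicate 3 stood at 8.63, below its nearest neighbour at 9.31. STK4 on the array labelled siHBO1 replicate 4 stood at 12.82, above its nearest neighbour at 12.76.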

How the results depend on the processing

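Of single values of pathway genes and KAT7 under alternatives, 830 of 833 stayed within 1 SD between replicates. The other 3 moved without background correction, AXL to -0.35, KAT7 to -0.33 and FAT4 to 0.14. That SD includes the shift of replicate 1, so it is a wide bound. Several genes changed sign, such as FAT1 (-0.22 to 0.25), NF2 (-0.36 to 0.18), CCN2 (-0.19 to 0.13) and TAOK1 (-0.22 to 0.35). YAP1, AXL and STK3 kept their sign in all 22 settings. Genes called by siRNA (limma, 6 of 17297) numbered 58 with the replicate block, 18 with trend and robust moderation, 16 without background correction, 11 with offset 50, 4 without a filter, and 0 with every probe a feature (792 at an unadjusted p under 0.05), median scaling (367), no normalization (169) or the authors' values (626), and 0 to 12 with arrays left out. Pathway genes called stayed at 0, the replicate block included. Groups lay apart for 1 pathway gene with median scaling (AXL), against 1.49% of all genes, and for 1 with no normalization (GADD45A), against 0.838%. With the authors' values it was 2 (AXL and YAP1), against 2.65%. With arrays left out it was 3 to 8, but the share of all genes then rose to between 4.03% and 12.4%, since fewer arrays separate more easily. By replicate number 1438 genes passed, against 3312 with trend and robust moderation, 3144 without background correction, 6878 without normalization, and 0 to 1656 with arrays left out. Of pathway genes 5 passed, against 12, 13 and 9 under the same 3 settings, and 0 to 7 with arrays left out. It was 8 with the filter on all 8 arrays, against 12.0% of all genes, and 8 with offset 50, against 11.3%. Causes were not tested. Dim probes (LATS2, FAT4, FOXF2) limit what can be read.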
